A study of Anguilla anguilla with 12 samples.

Results

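Eggs that female European eels (Anguilla anguilla) released after an injection of progesterone (P) were compared with eggs released after an injection of DHP, the dihydroxylated progestin that serves as maturation-inducing hormone in this species. The members are the 6 egg libraries of the 12 libraries in the series, chosen by the headings of the deposited count table: libraries 2, 6 and 10 are stripped eggs after P, and libraries 4, 8 and 12 are stripped eggs after DHP. All females were eels feminized with estradiol as elvers, matured with weekly carp pituitary extract, and injected with either steroid at the same dose per kg body weight, and 3 females were sampled per treatment. The other 6 libraries hold oocytes selected from ovarian tissue taken through a cannula just before the injection. They are oocytes before P (libraries 1, 5 and 9) and oocytes before DHP (libraries 3, 7 and 11). The oocyte libraries serve here only to show whether a difference between the eggs was present before the steroid was given. Count columns carry a library number but no female number, so no egg library was tied to an oocyte library. The question is whether eggs obtained with P hold the same transcripts, at the same levels, as eggs obtained with DHP, and how large a difference these libraries leave possible.

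P and DHP are related steroids: DHP is made from P by adding a hydroxyl group and by reducing a ketone to a further hydroxyl group. In fishes, luteinizing hormone makes the follicle cells around the oocyte secrete such a progestin, which acts on the oocyte to release it from meiotic arrest through activation of cyclin B and its kinase. Transcription is largely silent from then until the embryo's own genome is switched on, so the egg carries a stock of maternal mRNA that is lengthened or shortened at its poly(A) tail, translated, stored or degraded. The libraries were made from poly(A) RNA, so less of a transcript and a shorter tail on the same transcript cannot be told apart. Nor can fewer cells of a type and less RNA per cell, since each library is a bulk sample.

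The table listed 31061 genes. Counts above 0 were found for 22130 of them in the egg libraries, and 13178 passed the filter on low counts and were tested. Egg libraries held 7627353 to 9554822 counted fragments, so depth was similar throughout. Oocyte and egg markers, such as the zona pellucida genes, ddx4, nanog and ccnb1, summed to 15755 to 17899 CPM (counts scaled to a fixed library total) in P eggs and 14051 to 16220 in DHP eggs, and 36 of the 37 listed markers had a count in the eggs. Most of this sum was ccnb1, with 1.11 to 1.51% of the counts of a library, against 0.0431 to 0.0754% for the zona pellucida genes. Of the 34 markers tested, 15 were higher and 19 lower after P. The 14 granulosa markers summed to 7.89 to 12.5 CPM in P eggs and 7.03 to 16.8 in DHP eggs, against 274 to 692 in the oocyte libraries, which still hold follicle cells. The 7 theca markers, which include steroid 17-hydroxylase and 3 beta-hydroxysteroid dehydrogenases, summed to 145 to 214 CPM in P eggs and 42.6 to 119 in DHP eggs, without overlap. They summed to 1294 to 1446 CPM in oocytes before P and 322 to 977 in oocytes before DHP, but other members made up these sums. In the eggs most of the sum was LOC118214003, described with the steroid-making enzymes. The other 6 summed to 0.657 to 3.77 CPM in P eggs and 4.33 to 11.4 in DHP eggs, without overlap and in the reverse order. In the oocytes these 6 made up most of the sum, with 1195 to 1308 CPM before P and 262 to 914 before DHP. Blood markers summed to 124 to 275 CPM in P eggs and 67 to 359 in DHP eggs, and smooth muscle and vessel markers to 6.03 to 10 CPM in P eggs and 5.39 to 21.4 in DHP eggs.

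Some follicle transcripts had counts in DHP egg library 8 and in no other egg library, and the genes below were picked for this after their values were seen. The gene for steroid 17-alpha-hydroxylase/17,20 lyase (LOC118231945), a theca enzyme, had 82 counts in library 8 and 0 in the other 5 egg libraries, against 576 to 3841 counts in the oocyte libraries. The granulosa regulator foxl2a had 11 counts in library 8 and 0 in the other 5 egg libraries, and fshr, the receptor of follicle-stimulating hormone, had 6 and 0. The anion transporter gene LOC118208510 (solute carrier family 26 member 6-like) had 89 counts in library 8 alone among the eggs. Library 8 also held the highest number of genes with a count, 18898, against 17284 to 18171 in the other egg libraries. Over the theca markers other than LOC118214003, library 8 had 11.4 CPM, against 0.657 to 5.04 in the other egg libraries. In the sums over the granulosa, blood and vessel lists library 8 did not stand alone. Its granulosa sum was 16.4 CPM, with 8 of 14 markers at a count or more, against 16.8 CPM in library 12, with 3 of 14. Most of the granulosa sum in eggs was the 1 marker tested, with a mean of 92.8 normalized counts. Of the rarer ones, foxl2a, fshr, hsd17b1 and star had 11, 6, 2 and 2 counts in library 8 and 0 in library 12. By contrast, lhcgr had 3 counts in library 4 alone, and amh had 3 in library 2 and 1 in library 8. Blood markers summed to 359 CPM in library 8 and 338 in library 12, and smooth muscle and vessel markers to 21.4 and 20.1. Where a class median described here moved without library 8 by more than the SD between libraries, its value without that library is given. Some class medians moved by as much without another library, and these moves are given only in part. Without library 12, the median of the anaphase complex and mitotic kinases went from -0.11 to 0.041, and that of replication licensing from 0.035 to -0.105.

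No gene passed the test between P eggs and DHP eggs. The edgeR quasi-likelihood test gave 0 calls among 13178 genes (0%) at an adjusted p under 0.01, with a smallest adjusted p of 0.687, and limma-voom also called 0. At an unadjusted p under 0.05, edgeR gave 196 genes with higher values after P (1.49% of those tested) and 406 with lower values (3.08%), 602 in all (4.57%). DESeq2 called 9 genes at an adjusted p under 0.01 (0.0683%), 6 with higher and 3 with lower values after P. In 580 genes (4.4%) every P egg library lay above every DHP egg library, and in 672 (5.1%) every one lay below, 1252 (9.5%) without overlap. Full separation of 3 against 3 libraries corresponds to an exact two-sided permutation p of 0.1. The share without overlap, like that at an unadjusted p under 0.05, is thus near what equal groups would give. Lack of overlap in a gene named below is no evidence of a difference by itself, and such genes were partly picked for it. The fitted fold change was over 2 in 429 genes with higher values after P (3.26%) and in 1242 with lower values (9.42%), and 799 of these 1242 had a mean under 50 normalized counts.

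**Figure D1:**
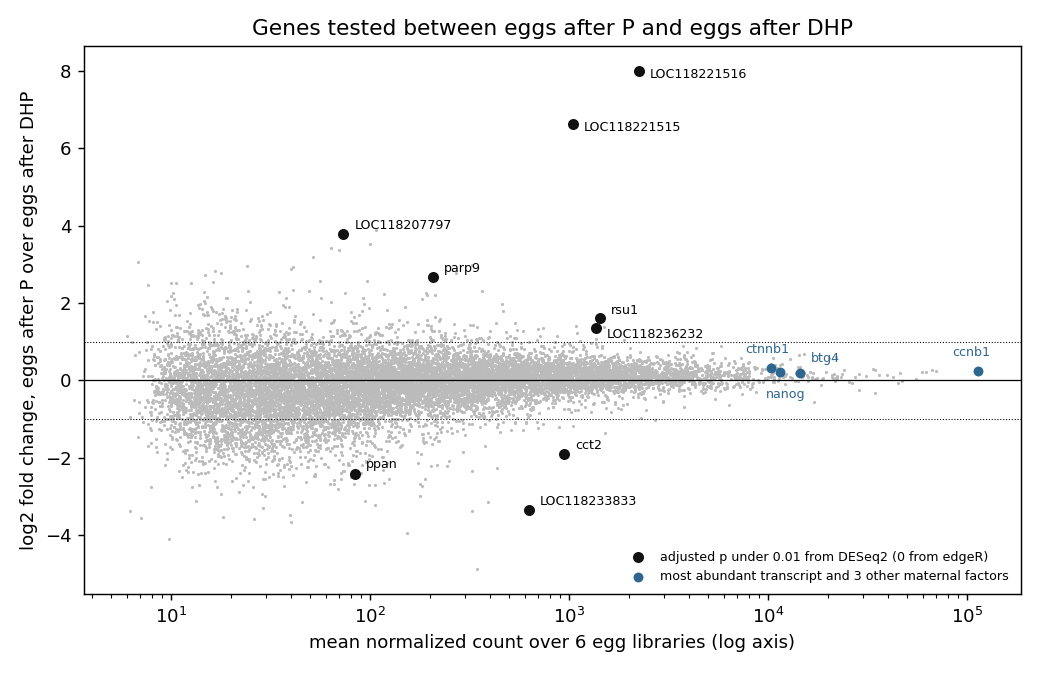
Each gray point is a gene tested, with its mean normalized count over the 6 egg libraries (log axis) against its log2 fold change, eggs after P over eggs after DHP, and dotted lines mark 2-fold. Black points are the 9 genes with a DESeq2 adjusted p under 0.01, of which edgeR called 0, and blue points are ccnb1, the most abundant transcript, and 3 other maternal factors, which sit within 2-fold.

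Genes over 2-fold lower after P outnumbered those over 2-fold higher with any DHP egg library left out, though the ratio changed. Without library 4 the counts over 2-fold were 777 higher and 1311 lower, without library 8 they were 727 and 1340, and without library 12 they were 894 and 1825. The median log2 fold change over all genes tested was -0.03 with TMM scaling, which itself centres the fold changes, and -0.13 with total counts only. Among the 9080 genes that averaged 50 normalized counts or more, 182 were over 2-fold higher and 443 over 2-fold lower after P, with a median of 0.029.

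Equality of both egg types was bounded by the 95% interval of each fold change from limma-voom. The whole interval lay within 2-fold for 2685 of 13178 genes (20.4%), within 1.5-fold for 183 (1.39%) and within 4-fold for 9220 (70.0%). A median gene had an interval reaching 1.13 log2 units (2.19-fold) to each side of its estimate, and the largest fold that its interval left possible in either direction was 2.86, with 1.77 at the 10th and 7.66 at the 90th percentile over genes. By a pair of one-sided tests against a difference of 2-fold, 0 genes were bounded at an adjusted p under 0.01 (smallest adjusted p 0.0633), although 4055 were at an unadjusted p under 0.05. Against a difference of 4-fold, 6712 genes (50.9%) were bounded at an adjusted p under 0.01. Equality lay inside the interval for 12654 genes and outside it for 524.

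How tight the bound was depended on abundance. Of the 4098 genes with a mean under 50 normalized counts, 0 had an interval within 2-fold, and the median far end of the interval was 5.13-fold. From 50 to under 200 counts, 2.98% of 3756 genes were within 2-fold, and from 200 to under 1000 counts 32.9% of 3436. From 1000 to under 5000 counts the share was 74.3% of 1611 genes, with a median far end of 1.79-fold, and at 5000 counts and over it was 88.1% of 277 genes, with 1.56-fold. Of the 100 most abundant genes, 88 were within 2-fold and 52 within 1.5-fold. The 1000 most abundant had 83.1% within 2-fold and a median far end of 1.67-fold. These unadjusted intervals were thus tight for the abundant maternal stock, though after adjustment 0 genes were bounded within 2-fold. For rare transcripts a difference of several fold was not detectable with 3 libraries per group.

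**Figure D2:**
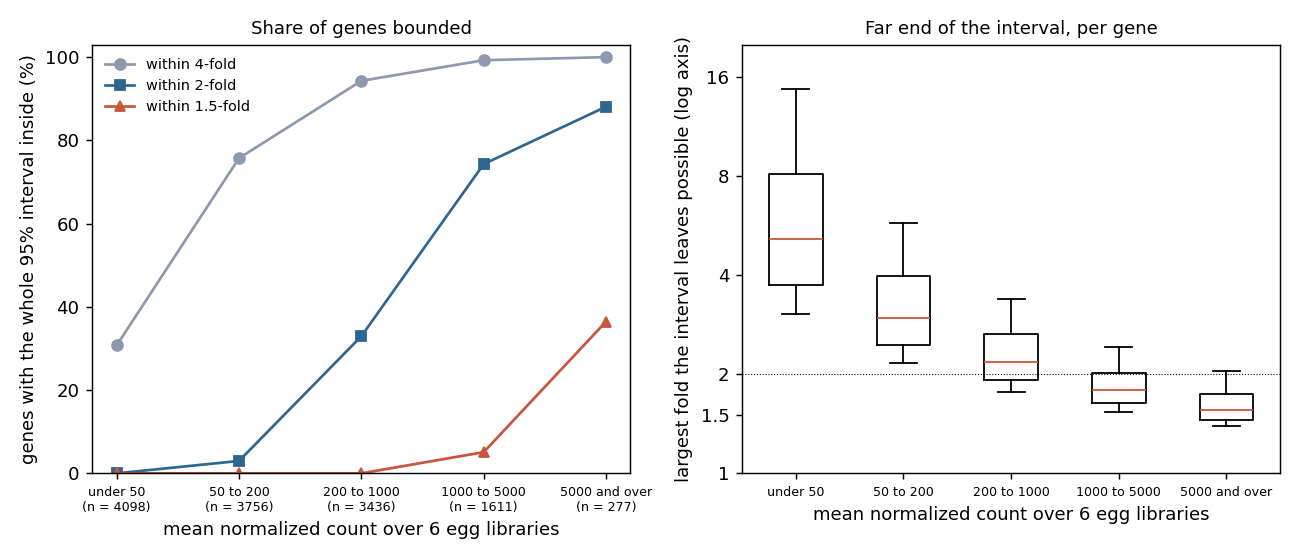
Genes are grouped by mean normalized count over the 6 egg libraries. The left panel gives the percent of genes whose whole 95% interval of the fold change, P eggs over DHP eggs, lies within 4-fold, 2-fold or 1.5-fold, and the share within 2-fold climbs to 88.1% in the most abundant class; the right panel gives the far end of the interval per gene (log axis; line, median; box, quartiles; whiskers, 10th and 90th percentiles), with medians of 5.13-fold in the rarest and 1.56-fold in the most abundant class.

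The number of genes bounded depended on which libraries entered. The interval was within 2-fold for 1572, 1460 and 1545 genes without P egg libraries 2, 6 and 10, and for 2631, 1933 and 1688 without DHP egg libraries 4, 8 and 12. Only the omission of library 4 left the count near the full one with a library fewer. With 4-fold, the count of genes bounded was 4304 without library 2 and 6322 without library 4.

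P eggs were more alike among themselves than DHP eggs. The median SD of log2 CPM over genes was 0.43 within P eggs and 0.58 within DHP eggs, and the SD was larger in DHP eggs for 8301 genes (63.0%). Across genes, which are not independent replicates, 2 P egg libraries correlated at r = 0.925 to 0.933, 2 DHP egg libraries at 0.877 to 0.912, and a P with a DHP egg library at 0.889 to 0.93. From 21 to 23.9% of genes were over 2-fold apart between 2 P egg libraries, 26.8 to 36.5% between 2 DHP egg libraries, and 21.4 to 34.6% between a P and a DHP egg library. The widest gap between a P and a DHP egg library was thus larger than any between 2 P egg libraries. It was smaller than the widest gap between 2 DHP egg libraries. Library 4 was farthest from the other libraries of its group, with 32.2% of genes over 2-fold from their mean, against 23.6% for library 8, 25.3% for library 12 and 17 to 18.9% for the P egg libraries. Without library 4 the median SD of DHP eggs was 0.40, now over 2 libraries. On that basis P eggs had 0.333, 0.381 and 0.352 without libraries 2, 6 and 10.

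The most abundant transcripts of the eggs included cyclins of the meiotic divisions. The transcript of ccnb1, cyclin B1 of maturation-promoting factor, came first in all 6 egg libraries with 1.11 to 1.51% of the counts, and the 10 most abundant genes of a library made up 6.76 to 7.72%. It had 109762, 119021 and 140723 normalized counts in P eggs, against 103704, 93341 and 113966 in DHP eggs, a log2 fold change of 0.25 ± 0.16 with an interval of -0.03 to 0.53. The groups overlapped, and the interval corresponds to 0.977 to 1.45 times the DHP level. For ccna1, cyclin A1, the values were 57782, 77265 and 82698 in P eggs, against 62152, 59875 and 58871 in DHP eggs, with an interval of -0.08 to 0.57, and for ccnb2, cyclin B2, they were 56103, 64325 and 70346 in P eggs, against 55082, 54115 and 54994 in DHP eggs, with -0.08 to 0.49. The means of these cyclins were higher after P, and each interval held equality and stayed within 2-fold.

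Several other abundant transcripts had intervals about as narrow. Among the rules for naming genes were high abundance and the narrowest intervals, so narrow intervals in named genes were partly set by the choice. Protein B4 (LOC118211021), the linker histone of oocytes and early embryos, had 58898, 50913 and 58327 normalized counts in P eggs, against 58873, 54624 and 49609 in DHP eggs, with an interval of -0.25 to 0.33 or 0.842 to 1.25 times the DHP level. An abundant hnRNP A0-like gene (LOC118222665), whose product binds mRNA, had 62840.1, 59545 and 77107 normalized counts in P eggs, against 66897, 49049.7 and 56374 in DHP eggs and an interval of -0.13 to 0.55. The interval was -0.30 to 0.37 for the cold-inducible RNA-binding protein gene LOC118225872, -0.29 to 0.41 for the DNA helicase gene pif1, -0.19 to 0.45 for the initiation factor gene eif4a1b and -0.21 to 0.46 for LOC118230138, subunit M2 of ribonucleotide reductase, which makes the building blocks of DNA. Of the 100 most abundant genes of any single egg library, 68 were among the 100 most abundant of all 6.

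Product classes were set by gene symbol and product name, and each of the 46 is described by its counts and its median log2 fold change beside those of all genes tested (median -0.03, with 20.4% of intervals within 2-fold, 1.49% of genes above and 3.08% below at an unadjusted p under 0.05). The counts of members at an unadjusted p under 0.05 given below are to be read against these shares. How tight the bound was depended on abundance, so the share of intervals within 2-fold is to be read beside the abundance of a class. No member of any class was called by edgeR. The share of all counts that a class took differed without overlap between the groups in 3 of 46 classes, with an exact two-sided permutation p of 0.1, the smallest that 3 against 3 libraries allow, and a smallest adjusted p of 0.976 over the 46. The ratio of P to DHP shares ran from 0.406 to 1.22, and 40 of 46 classes lay between 0.8 and 1.3. In 33 of 46 the median log2 fold change was within 0.2 of equality.

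**Figure D3:**
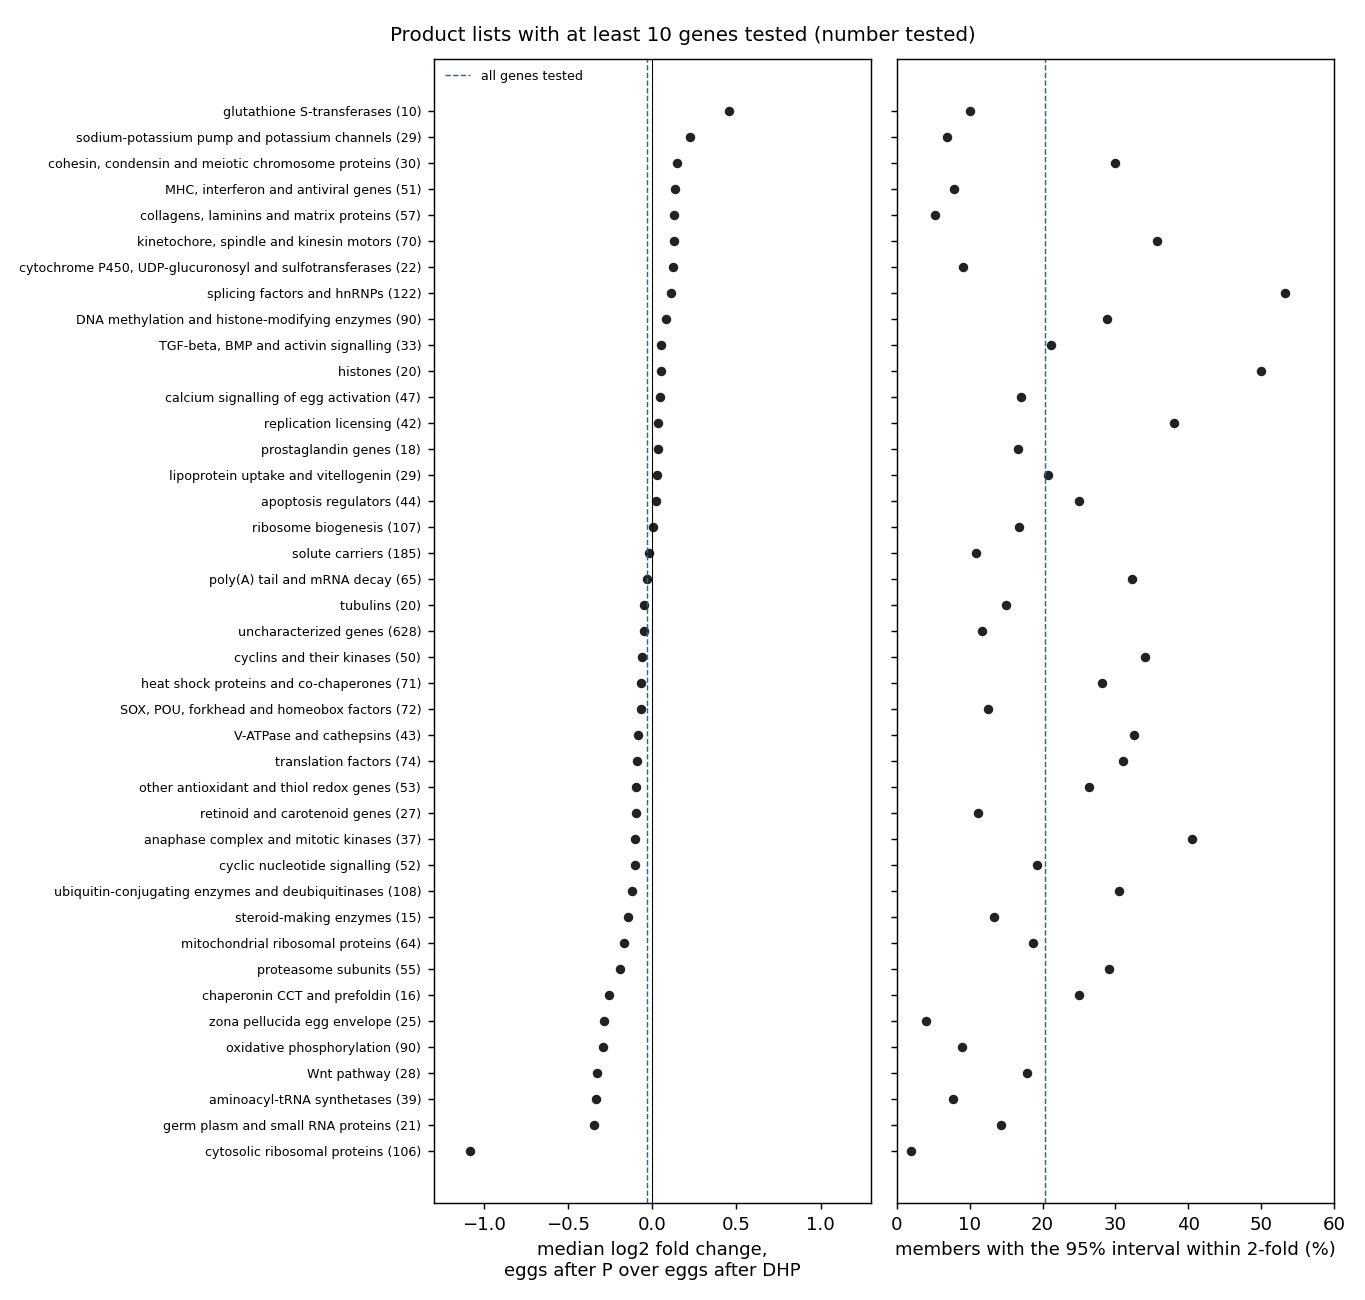
Each row is a product class with at least 10 genes tested, with their number. The left panel gives the median log2 fold change, eggs after P over eggs after DHP, and the right panel the percent of members whose 95% interval lies within 2-fold; dashed lines mark all genes tested. Cytosolic ribosomal proteins have the lowest median, -1.09, which was -0.05 without DHP egg library 8, and splicing factors the highest share within 2-fold, 53.3%.

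Of the abundant genes of maturation and division, cdc20, plk1 and tpx2 overlapped between the egg types and pttg1 did not. The 50 tested cyclins and cyclin-dependent kinases had a median of -0.06, with 34% within 2-fold, 0 members with unadjusted p under 0.05 above and 3 below, and the median was 0.018 without library 8. The 37 genes of the anaphase-promoting complex and mitotic kinases had -0.11 and 40.5%, and the 70 kinetochore, spindle and kinesin genes 0.13 and 35.7%. The activator of anaphase cdc20 had 57183, 75129.6 and 94832 normalized counts in P eggs, against 51708, 74699 and 66851 in DHP eggs, and the mitotic kinase gene plk1 had 19518, 28239 and 30654 in P eggs, against 17533, 21500.1 and 26480.3 in DHP eggs, so the groups overlapped for both. Securin, pttg1, which holds back the separation of chromatids, had 27682, 21909.5 and 29127 normalized counts in P eggs, against 13739, 19104 and 19482 in DHP eggs, without overlap, and a log2 fold change of 0.59 ± 0.21 (edgeR adjusted p = 0.984). The microtubule nucleation factor gene tpx2 had 32570.2, 40040.5 and 40683 in P eggs, against 33909, 26282 and 34251 in DHP eggs, with overlap.

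The condensin subunit genes smc2 and smc4 had higher values after P. Of the structural maintenance of chromosomes genes, smc2 had 5168, 5034 and 4326 normalized counts in P eggs, against 1502, 3699 and 2636 in DHP eggs, a log2 fold change of 0.89 ± 0.31, and smc4 had 6139.9, 5599 and 4996 in P eggs, against 2151, 4127 and 3143 in DHP eggs, with 0.83 ± 0.26. Neither overlapped between the groups, and both edgeR adjusted p were 0.984. In both genes the lowest value was that of library 4. The 30 genes of cohesin, condensin and meiotic chromosomes had a median of 0.14, with 3 above and 2 below at an unadjusted p under 0.05.

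The replication kinase subunit dbf4 had lower values after P: 959, 542 and 1039 normalized counts in P eggs, against 2834, 1955 and 1731 in DHP eggs. Its log2 fold change was -1.36 ± 0.32 with an interval of -2.11 to -0.68 (edgeR adjusted p = 0.984), and the oocytes taken before the injections showed the same order without overlap, with 468, 252 and 499.9 normalized counts in oocytes before P, against 1088, 693 and 816 in oocytes before DHP. The replication helicase subunit mcm4 had 102, 151 and 174 normalized counts in P eggs, against 214, 432 and 218 in DHP eggs, without overlap, and an interval of -1.94 to -0.02. The 42 replication licensing genes had a median of 0.035 and 38.1% within 2-fold.

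In 2 division genes a large fold change rested on a single library. Cyclin B3, ccnb3, had 70.1, 34.9 and 36.8 normalized counts in P eggs, against 15.2, 763 and 172 in DHP eggs, where library 8 was far above the rest. The meiotic pairing protein gene sycp3 had 10.4, 22.7 and 23.4 in P eggs, against 828, 20.7 and 21.9 in DHP eggs, and its high value was in library 4 alone. Their intervals, -4.15 to 1.21 and -5.2 to 1.05, both held equality.

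The 65 genes of poly(A) tails and mRNA decay had a median of -0.03 with 0 above and 3 below at an unadjusted p under 0.05, and 32.3% within 2-fold. The deadenylation adaptor btg4, which in mammals starts the clearance of maternal mRNA, had 14506, 16986 and 15075 normalized counts in P eggs, against 7529, 18419 and 14843 in DHP eggs, with library 4 lowest and an interval of -0.33 to 0.91. The deadenylase subunit cnot8 had 11350.3, 13383 and 15969.8 in P eggs, against 13051, 13559 and 14653 in DHP eggs, an almost equal pair of means with an interval of -0.43 to 0.36.

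A cytoplasmic polyadenylation element-binding protein gene (LOC118223352), one of the family that controls poly(A) tails in oocytes, had lower values after P, with 11.4, 14.2 and 24.5 normalized counts in P eggs, against 87.2, 57.4 and 124 in DHP eggs. All P egg libraries lay below all DHP egg libraries, with a log2 fold change of -2.42 ± 0.59 and an interval of -3.78 to -1.03 (edgeR adjusted p = 0.984, DESeq2 0.032). The deadenylase parn followed the same order, with 219.6, 109 and 166 in P eggs, against 394, 610.2 and 312 in DHP eggs and -1.41 ± 0.42. Before the injections LOC118223352 had no such order, with 209.8, 278 and 114 normalized counts in oocytes before P, against 183, 359.9 and 218 in oocytes before DHP.

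Splicing factors and hnRNPs, 122 genes, were the most closely bounded large class, with 53.3% of intervals within 2-fold and a median of 0.11. They were also abundant, and the median member had a mean of 884.5 normalized counts. Whether the class was more closely bounded than other genes of like abundance was not tested. The splicing factor gene prpf4 had higher values after P, 1659, 2029 and 1869 normalized counts in P eggs, against 1008, 960.0 and 672 in DHP eggs, and the spliceosome core gene snrpf lower ones, 1027, 1977 and 1654 in P eggs, against 3876, 2731 and 2517 in DHP eggs. Both were without overlap, with log2 fold changes of 1.07 ± 0.27 and -0.97 ± 0.30 (edgeR adjusted p = 0.984 for both).

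Germ plasm and small RNA genes took 0.113 ± 0.00492% of the counts in P eggs and 0.134 ± 0.00623% in DHP eggs (SD, n = 3 each), without overlap between the groups. The median of the 21 tested was -0.35, with 17 of 21 lower after P, and it was -0.14 without library 4 and -0.23 without library 8. Among them tdrd3, a tudor domain gene, had 67.2, 51 and 87 normalized counts in P eggs, against 283, 166 and 96.7 in DHP eggs. The germ cell factor nanos3 had 1836, 2068 and 2632 in P eggs, against 3127, 2494 and 1869.9 in DHP eggs, with overlap, and an interval of -0.79 to 0.39. Zygote arrest 1-like, zar1l, a regulator of stored maternal mRNA, had 243, 130.3 and 162 in P eggs, against 190.4, 1103 and 447 in DHP eggs, with overlap and with library 8 highest.

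Cytosolic ribosomal proteins showed the widest gap of all large classes, and a single library carried it. Of 106 tested, 100 had lower values after P, 56 of them by over 2-fold, and 14 passed an unadjusted p under 0.05, all lower. The median log2 fold change was -1.09, and 1.89% of intervals were within 2-fold. The median member had 33.1, 47.7 and 42.4 normalized counts in P eggs, against 45.5, 199.8 and 48.4 in DHP eggs, so that library 8 stood far above libraries 4 and 12, which were near the P eggs. In 97 of 106 genes library 8 was the highest of the 6. Without it the median was -0.05, with 57 lower and 49 higher and 1 over 2-fold lower.

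In the oocyte libraries the median ribosomal protein gene had a mean of 1211 normalized counts, on a scale set within the oocytes. Thus all eggs held few poly(A) copies of ribosomal protein mRNA, and library 8 held more of them. It also held the theca and granulosa transcripts named above, whose part in the result was not tested. Single members show the pattern: rpl32 had 15.1, 8.5 and 27.9 normalized counts in P eggs, against 20.8, 173 and 49.5 in DHP eggs, and rpl14 had 73.8, 74.6 and 33.4 in P eggs, against 113, 303 and 122 in DHP eggs. The ribosomal stalk gene rplp1 had 1048, 1007 and 548 in P eggs, against 398, 971 and 391 in DHP eggs, with the higher mean after P. The large subunit gene LOC118206349 (ribosomal protein L37) had 762, 1774 and 527 in P eggs, against 451, 1210.1 and 811 in DHP eggs, and its log2 fold change of 0.31 ± 0.48 was -0.35 without library 6.

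**Figure D4:**
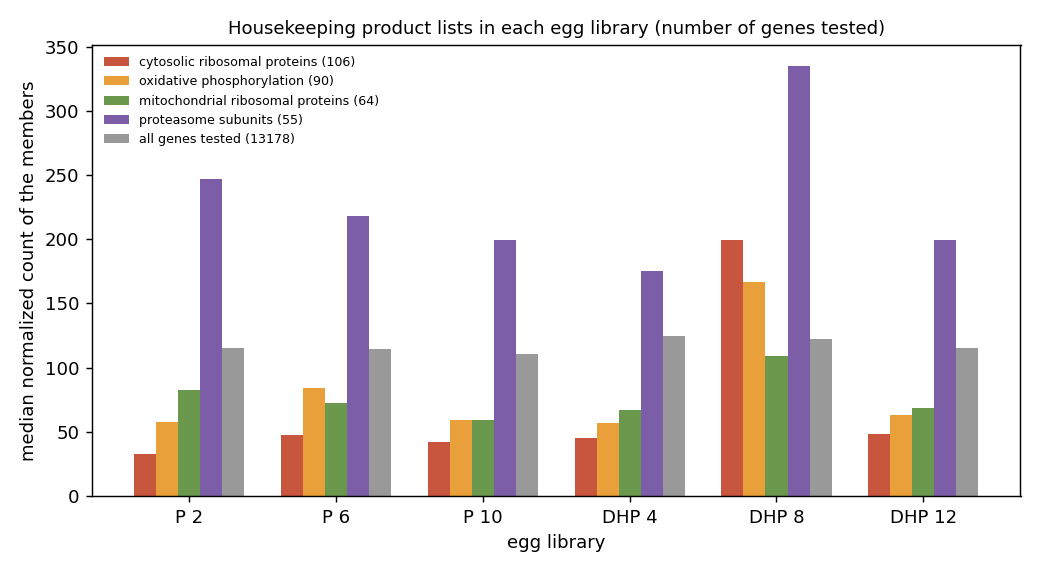
Bars give the median normalized count of the members of 4 housekeeping classes and of all genes tested in each egg library, P eggs on the left and DHP eggs on the right. The median ribosomal protein gene is at 199.8 in DHP library 8 and at 33.1 to 48.4 in the other 5 libraries, while the median of all genes tested is at 110.4 to 125.

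Genes of oxidative phosphorylation behaved alike. Of 90 tested, 63 had lower values after P and the median was -0.30, but 65 of 90 were highest in library 8, and without it the median was 0.29, with 64 of 90 higher after P. Mitochondrial ribosomal proteins had -0.17 over 64 genes and -0.02 without library 8, and proteasome subunits -0.19 over 55 and 0.036. Library 8 carried less of the mitochondrial ribosomal class, where it was highest in 32 of 64 genes. In that class 10 genes were over 2-fold lower after P, and 7 without library 8. At an unadjusted p under 0.05, 1 of the 64 was above and 7 were below. Elongation factor gene eef1g had 71.9, 62.3 and 66.9 normalized counts in P eggs, against 95.7, 451 and 108 in DHP eggs, again highest in library 8. Within the mitochondrial ribosome 2 members were higher and 7 lower after P without overlap, against 4.4% and 5.1% of all genes tested. Of these, mrps12 had 325, 231 and 122 in P eggs, against 54.9, 86.5 and 97.9 in DHP eggs, and mrps30 had 242, 144 and 130.4 in P eggs, against 423, 524 and 290.2 in DHP eggs.

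The 107 ribosome biogenesis genes had a median of 0.0011, or -0.017 without library 8, with 54 higher and 53 lower after P, and they took 0.634 ± 0.0243% of the counts in P eggs and 0.635 ± 0.0674% in DHP eggs. Within this class ppan, a factor needed to make the large ribosomal subunit, had lower values after P, 33.1, 19.8 and 26.8 normalized counts in P eggs, against 139, 197 and 91 in DHP eggs. The groups did not overlap, the log2 fold change was -2.42 ± 0.53 and the interval -3.58 to -1.18, or 0.0837 to 0.442 times the DHP level (edgeR adjusted p = 0.984, DESeq2 0.0042). The order was the reverse before the injections, with 1991, 1575 and 1295 normalized counts in oocytes before P, against 916, 849 and 1014 in oocytes before DHP. Nucleolin, ncl, a nucleolar protein, had 65.3, 47.2 and 111 normalized counts in P eggs, against 428, 289.6 and 92.1 in DHP eggs, and the groups overlapped.

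The 74 translation factors had a median of -0.09 and 31.1% of intervals within 2-fold, and the median was 0.14 without library 8. The 39 aminoacyl-tRNA synthetases, which charge tRNA, had -0.33 with 28 lower after P, 1 above and 5 below at an unadjusted p under 0.05. The RNA helicase gene ddx6 (LOC118234351), which represses translation of stored mRNA, had 532, 705 and 478 normalized counts in P eggs, against 259.6, 191 and 253 in DHP eggs, and the caprin-1-like gene LOC118215217, whose product binds mRNA, had 7195, 6849.5 and 8427 in P eggs, against 4406, 3306 and 4567 in DHP eggs. Both had higher values in every P egg library, with log2 fold changes of 1.28 ± 0.35 and 0.87 ± 0.22 (edgeR adjusted p = 0.984).

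Among genes of protein folding and turnover, cct2 stood out. It encodes a subunit of the chaperonin that folds actin and tubulin, and had 219.6, 609 and 368 normalized counts in P eggs, against 1427, 1289 and 1780.1 in DHP eggs. Every P egg library was below every DHP egg library, with a log2 fold change of -1.91 ± 0.38 and an interval of -2.82 to -1.2, or 0.141 to 0.436 times the DHP level (edgeR adjusted p = 0.869, DESeq2 0.0059). Of the other 15 chaperonin and prefoldin genes tested, 6 were higher and 9 lower after P, with a median of -0.17, and 0 had an unadjusted p under 0.05. With cct2 the median of all 16 was -0.26, and 0.033 without library 8. Before the injections cct2 had 1085, 1209.5 and 1688 normalized counts in oocytes before P, against 1638, 1461 and 2661 in oocytes before DHP.

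The proteasome ATPase psmc4 went the other way, with 1483, 2074 and 1572 normalized counts in P eggs, against 859, 785 and 981 in DHP eggs, a log2 fold change of 0.97 ± 0.27 and no overlap. Of the 108 ubiquitin-conjugating enzymes, their partners and deubiquitinases, 4 were below and 0 above at an unadjusted p under 0.05, and the median was -0.12. A ubiquitin ligase gene, arih1, had 34.1, 16.1 and 59.1 normalized counts in P eggs, against 211, 363 and 64.5 in DHP eggs. Its interval of -4.13 to -0.80 was wide, and its highest P and lowest DHP values nearly met. The 71 heat shock proteins and co-chaperones had a median of -0.07.

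Detoxification and redox genes included 1 of the genes that DESeq2 called. LOC118207797, a Mu 3-like glutathione S-transferase that couples glutathione to toxic compounds, had 126, 109 and 178 normalized counts in P eggs, against 7.58, 21.6 and 0 in DHP eggs. The interval was 2.38 to 7.04, or 5.2 to 132 times the DHP level, and edgeR's adjusted p was 0.984 against 0.0039 from DESeq2. Oocytes showed the same order before any steroid was given, with 105, 52.1 and 150.4 normalized counts in oocytes before P, against 13.1, 3.72 and 0 in oocytes before DHP. The 10 glutathione S-transferases tested had a median of 0.46, which was 0.11 without library 4. Another member, the kappa 1-like gene LOC118229068, had 1814, 1458 and 4345 normalized counts in P eggs, against 2461, 314 and 928 in DHP eggs, with overlap.

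The mitochondrial superoxide dismutase sod2 had lower values after P, 17, 19.8 and 13.4 normalized counts in P eggs, against 57.8, 36.7 and 32.2 in DHP eggs, and the cytochrome P450 2U1-like gene LOC118231889, an oxidase of fatty acids in mammals, had 17962, 28661 and 26147 in P eggs, against 11847, 19222 and 17713 in DHP eggs, with overlap. Over the 53 other antioxidant and thiol redox genes the median was -0.10, with 0 above and 3 below at an unadjusted p under 0.05. Cytochrome P450, glucuronosyl and sulfotransferase genes, 22 tested, had 0.12, with 2 above and 0 below.

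Immune genes were loosely bounded: of 51 MHC, interferon and antiviral genes 7.84% had an interval within 2-fold, and 5 were above and 2 below at an unadjusted p under 0.05. They were also rare, and the median member had a mean of 47.9 normalized counts. Of all 4098 genes under 50 counts, 0 had an interval within 2-fold. The antiviral ADP-ribosyltransferase gene parp9 had the second-smallest p of all genes. It had 222, 399 and 453 normalized counts in P eggs, against 33.2, 79.9 and 55.3 in DHP eggs, a log2 fold change of 2.67 ± 0.48 and an interval of 1.57 to 3.79, or 2.97 to 13.8 times the DHP level (edgeR adjusted p = 0.687, DESeq2 1.9e-04). Before the injections the groups were also apart, with 146, 276 and 244 normalized counts in oocytes before P, against 42.1, 124 and 47.1 in oocytes before DHP. An interferon-induced protein 44-like gene (LOC118228892) had 584, 295 and 279 normalized counts in P eggs, against 125, 72.4 and 228 in DHP eggs, likewise without overlap, and 651, 474 and 323 normalized counts in oocytes before P, against 242, 124 and 209 in oocytes before DHP.

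The MHC class I-related gene LOC118233833 had lower values after P, 104, 211 and 17.8 normalized counts in P eggs, against 348, 1039 and 2048 in DHP eggs, a log2 fold change of -3.36 ± 0.81 (edgeR adjusted p = 0.984, DESeq2 0.0040). Values were widely spread within each group, and the oocytes had the same order, with 158, 209 and 150.4 normalized counts in oocytes before P, against 593, 802 and 1883 in oocytes before DHP. The chemokine receptor gene LOC118232871 (C-X-C type 3-like) had 38.8, 119.9 and 222 normalized counts in P eggs, against 1.89, 8.46 and 26.5 in DHP eggs, and 16.4, 23.3 and 22.6 normalized counts in oocytes before P, against 1.87, 2.48 and 0 in oocytes before DHP, again in the same order. Reads of genes in such families may be shared between near-identical copies, so these values are uncertain.

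For 2 further immune genes a single DHP library held nearly all counts. The adhesion gene LOC118216445 (vascular cell adhesion protein 1-like) had 5.68, 28.3 and 33.4 normalized counts in P eggs, against 36.9, 37.6 and 1929 in DHP eggs, and the immune regulator nlrc5 had 7.57, 17.9 and 35.7 in P eggs, against 4.74, 7.52 and 562 in DHP eggs, both highest in library 12. Without library 12 the log2 fold change of nlrc5 was 1.72 in place of -3.23. Interferon regulatory factor 5, irf5, had 933, 1134 and 931 in P eggs, against 795, 571 and 933 in DHP eggs, and an interval of -0.23 to 1.07 that held equality.

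Among genes of the yolk and egg envelope, the lysosomal protease genes ctsba and LOC118220535 (cathepsin S-like), of the group that cleaves yolk proteins in fish oocytes, had 37504, 49059 and 53495 normalized counts in P eggs, against 33432, 54302 and 54065 in DHP eggs, and 27978, 21385 and 23025 in P eggs, against 17421, 24850.2 and 25581 in DHP eggs. Both overlapped, with intervals of -0.45 to 0.46 and -0.30 to 0.53. The 43 V-ATPase and cathepsin genes had a median of -0.085, or 0.16 without library 8, and took 1.18 ± 0.048% of the counts in P eggs and 1.19 ± 0.184% in DHP eggs. A zona pellucida sperm-binding protein 3-like gene of the egg envelope, LOC118226967, had lower values after P without overlap, 71, 147 and 81.4 normalized counts in P eggs, against 389, 215 and 189 in DHP eggs. The 25 zona pellucida genes had a median of -0.29, and with library 8 left out 26 were tested, with a median of 0.0079. The claudin-like gene LOC118234813, a tight junction protein, had 48217, 49181 and 50136 normalized counts in P eggs, against 37954, 50806 and 41085 in DHP eggs, with an interval of -0.12 to 0.51.

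Ion transport matters in these eggs because marine fish eggs take up water by osmosis before release. The sodium-potassium pump and potassium channel genes took 0.476 ± 0.0356% of the counts in P eggs and 0.403 ± 0.0227% in DHP eggs (SD, n = 3 each), higher in all 3 P egg libraries, with an exact two-sided permutation p of 0.1. Of the 29 tested, 22 were higher after P, with a median of 0.23, and 1 was above and 0 below at an unadjusted p under 0.05. The pump's alpha subunit gene LOC118214180 had 15639.5, 20419 and 16529 normalized counts in P eggs, against 7689, 12728 and 13155 in DHP eggs, a log2 fold change of 0.65 ± 0.24 (edgeR adjusted p = 0.984), and its beta subunit gene LOC118222773 had 18759.7, 14678 and 15684 in P eggs, against 17649.7, 12358 and 14686 in DHP eggs, with overlap. All listed genes of the class summed to 45839, 46805 and 36420 counts in P eggs, against 36057, 33732 and 31201 in DHP eggs. The alpha and beta subunit genes thus made up most of the class, and its share says little about the other members. Of the 25 aquaporin genes listed 1 was tested, the aquaporin-1-like water channel gene LOC118234673, with 54.9, 50.1 and 91.4 normalized counts in P eggs, against 54.9, 116 and 63.3 in DHP eggs and an interval of -1.37 to 0.88. The 185 solute carriers had a median of -0.023, with 5 above and 11 below at an unadjusted p under 0.05. Among them the copper transporter slc31a1 had 1499, 1374 and 1709 normalized counts in P eggs, against 1001, 681 and 581 in DHP eggs.

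Calcium and cyclic nucleotide signalling, used at egg activation and in the arrest of the oocyte, had medians of 0.044 over 47 genes and -0.11 over 52, and of 0.16 and -0.19 without library 8. The calmodulin gene LOC118220834 had 6171, 4592 and 4140.2 normalized counts in P eggs, against 3209, 3119 and 3461 in DHP eggs, without overlap, and the phospholipase gene plcg1, whose product releases calcium through inositol trisphosphate, had 5224, 7488 and 8908 in P eggs, against 5841, 5181 and 8515 in DHP eggs, with overlap. The kinase gene camk1gb had 141, 195 and 13.4 normalized counts in P eggs, against 3.79, 22.6 and 5.76 in DHP eggs, with overlap, and its oocytes had 109.7, 145 and 5.66 normalized counts in oocytes before P, against 9.35, 14.9 and 8.38 in oocytes before DHP. A G protein subunit gene, LOC118211173, had lower values after P, 96.6, 65.2 and 94.8 normalized counts in P eggs, against 300.3, 729.6 and 170.4 in DHP eggs, with a log2 fold change of -2.23 ± 0.54 (edgeR adjusted p = 0.984, DESeq2 0.024).

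Steroid receptors and steroid-making enzymes were of interest because the compounds injected are steroids. The transcripts of the nuclear progesterone receptor gene pgr were at 1, 12 and 1 counts in P eggs, against 17, 5 and 3 in DHP eggs, below the filter, and the oocyte libraries had 1791 to 4820. The progesterone receptor-like gene LOC118235591 had 0 in all P eggs, against 0, 36 and 0 in DHP eggs, and the androgen receptor-like gene LOC118223864 had 0 in all P eggs, against 0, 11 and 0 in DHP eggs, all in library 8. The receptor of luteinizing hormone, lhcgr, had 0 in all P eggs, against 3, 0 and 0 counts in DHP eggs, and the prostaglandin E2 receptor EP4-like gene LOC118213447 had 1, 0 and 3 in P eggs, against 0, 3 and 4 in DHP eggs. No difference of these receptors was detectable at this depth.

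Membrane progestin receptors were measured better. The component gene pgrmc1 had 404, 391 and 172 normalized counts in P eggs, against 319, 605 and 463 in DHP eggs, and pgrmc2 had 569.9, 322 and 584 in P eggs, against 474, 548 and 302 in DHP eggs. The receptor gene paqr5a had 160.0, 250.3 and 430.3 in P eggs, against 117, 333 and 288 in DHP eggs. All 3 overlapped, with intervals of -1.48 to 0.37, -0.69 to 0.96 and -0.91 to 1.31, which left differences of up to 2.79-fold, 1.94-fold and 2.48-fold possible. The glucocorticoid receptor nr3c1 had 352, 365 and 331 normalized counts in P eggs, against 767, 212 and 359 in DHP eggs, with library 4 highest, and its log2 fold change of -0.35 ± 0.45 was 0.30 without that library.

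Of the 15 steroid-making enzymes tested, 1 was above and 0 below at an unadjusted p under 0.05. That gene, LOC118214003, a 3 beta-hydroxysteroid dehydrogenase of the kind that makes P, had 1249, 1476 and 1989 normalized counts in P eggs, against 303, 898 and 577 in DHP eggs. The groups did not overlap, with a log2 fold change of 1.41 ± 0.39 and an interval of 0.66 to 2.36 (edgeR adjusted p = 0.984, DESeq2 0.23), and the oocytes had 708, 781 and 1158 normalized counts in oocytes before P, against 524, 518 and 623 in oocytes before DHP. Its direct neighbour on chromosome 15 with the same product name, LOC118214002, had 1.89, 33.1 and 1.11 normalized counts in P eggs, against 26.5, 4.7 and 27.6 in DHP eggs, against 523 to 2899 in the oocyte libraries. The enzyme gene hsd17b12a had 6855, 11003 and 5385 normalized counts in P eggs, against 9069, 7049.8 and 6514 in DHP eggs, and its log2 fold change of 0.04 was -0.30 without library 6.

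Of the factors stored for the embryo, 4 abundant ones had an unadjusted interval within 2-fold and several rarer ones were apart. Nanog, which in zebrafish helps switch on the embryo's genome, had 12684, 10523 and 13648 normalized counts in P eggs, against 12864, 8785 and 10403 in DHP eggs, with an interval of -0.23 to 0.64. The zebrafish partner in that role, sox19b, had 16404, 16717 and 18034 in P eggs, against 17506, 14226 and 16602 in DHP eggs, with -0.27 to 0.44, and beta-catenin, ctnnb1, which sets the dorsal side, had 8697, 12431 and 13213 in P eggs, against 9345, 7909 and 10264 in DHP eggs, with -0.16 to 0.77. The maintenance DNA methyltransferase dnmt1 had 31610.3, 40148 and 39072 in P eggs, against 28478, 22981 and 39107 in DHP eggs, with -0.10 to 0.76. All 4 intervals stayed within 2-fold and held equality. The OTX1 B-like homeobox gene LOC118221876 had lower values after P, 574, 297 and 534 normalized counts in P eggs, against 1355, 606 and 1096 in DHP eggs, without overlap, and the Wnt regulator apc had 79.5, 85.9 and 153 in P eggs, against 393, 228 and 260.2 in DHP eggs, without overlap. The 28 Wnt pathway genes tested had a median of -0.33, with 0 above and 4 below at an unadjusted p under 0.05. Their median was -0.067 without library 4. The histone methyltransferase kmt5c had 88, 66.1 and 44.6 normalized counts in P eggs, against 331, 192 and 134 in DHP eggs, without overlap, and an interval of -2.78 to -0.57. Over the 72 SOX, POU, forkhead and homeobox factors the median was -0.070, with 0 above and 5 below at an unadjusted p under 0.05, and 12.5% of intervals were within 2-fold, against 20.4% of all genes. The median member of this class had a mean of 63.1 normalized counts, and its share was not compared with that of genes of like abundance.

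A carotenoid-cleaving oxygenase gene gave the smallest p of all genes, with a low spread within each group. LOC118236232 (beta,beta-carotene 9',10'-oxygenase-like, chromosome 9) had 1961, 1866 and 2059 normalized counts in P eggs, against 728, 774 and 786 in DHP eggs, with a log2 fold change of 1.36 ± 0.24 and an interval of 0.81 to 1.91, or 1.76 to 3.76 times the DHP level (edgeR adjusted p = 0.687, DESeq2 0.0040). Its neighbour with the same product name, LOC118235864, had 1556, 1465 and 3113 in P eggs, against 1196, 1468 and 1324 in DHP eggs, with overlap. Reads may be shared between such copies, so the split between them is uncertain. In the oocytes LOC118236232 had 537, 407 and 922 normalized counts in oocytes before P, against 309, 328 and 386 in oocytes before DHP, again higher before P without overlap. The 27 retinoid and carotenoid genes had a median of -0.10 (0.021 without library 8), with 1 above and 1 below at an unadjusted p under 0.05.

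Ras suppressor protein 1, rsu1, a partner of integrin adhesion complexes, had 1972, 1908 and 2559 normalized counts in P eggs, against 814, 481 and 819 in DHP eggs, a log2 fold change of 1.61 ± 0.30 (edgeR adjusted p = 0.687, DESeq2 0.0059), and its oocytes had the same order, with 1029.5, 924 and 912 normalized counts in oocytes before P, against 644, 321 and 397 in oocytes before DHP. The urea cycle enzyme gene asl had 859.6, 679.9 and 816 normalized counts in P eggs, against 326, 342 and 283 in DHP eggs, and the peptidase gene dnpep had 1172, 1238 and 577 in P eggs, against 515, 316 and 362 in DHP eggs. A protocadherin Fat 4-like gene of cell polarity, LOC118221307, had 399, 266 and 326 in P eggs, against 101, 97.8 and 145 in DHP eggs. These last 3 did not overlap, and their log2 fold changes were 1.31 ± 0.31, 1.32 ± 0.37 and 1.53 ± 0.39, with edgeR adjusted p of 0.984.

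Among genes with lower values after P, the sialic acid lyase npl had 98.5, 106 and 94.8 normalized counts in P eggs, against 295, 387 and 254 in DHP eggs, a log2 fold change of -1.65 ± 0.38 with little spread in the P eggs. The actin-binding profilin-2-like gene LOC118230073 had 41.7, 33.1 and 34.6 in P eggs, against 189, 189 and 86.4 in DHP eggs, and depdc1b, a DEP domain gene, had 15.1, 33.1 and 25.6 in P eggs, against 59.7, 182 and 189 in DHP eggs. The groups did not overlap in these genes. Before the injections npl had the same order without overlap but by a small margin, with 207, 197 and 185 normalized counts in oocytes before P, against 221, 217 and 208 in oocytes before DHP.

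The largest fold changes belonged to a pair of uncharacterized neighbours on chromosome 2, and not every P egg had them. LOC118221516 (positions 60020255 to 60022526, fAngAng1.pri) had 4963, 41.6 and 8446 normalized counts in P eggs, against 16.1, 2.82 and 34.5 in DHP eggs, and LOC118221515 (60033118 to 60035148) had 2578, 36.8 and 3585 in P eggs, against 11.4, 23.5 and 27.6 in DHP eggs. Libraries 2 and 10 held nearly all the counts, while P library 6 was close to the DHP eggs. The log2 fold changes were 8.0 ± 1.52 and 6.63 ± 1.24 (edgeR adjusted p = 0.687 for both, DESeq2 0.0040), with intervals of -0.59 to 13.82 and 0.13 to 10.07. In the oocytes before P, LOC118221516 had 3221, 11.2 and 2872 normalized counts, against 5.61, 1.24 and 12.6 in oocytes before DHP, so a mix of high and low libraries was there before P was given. Without library 6 edgeR called both of them, and no other gene.

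**Figure D5:**
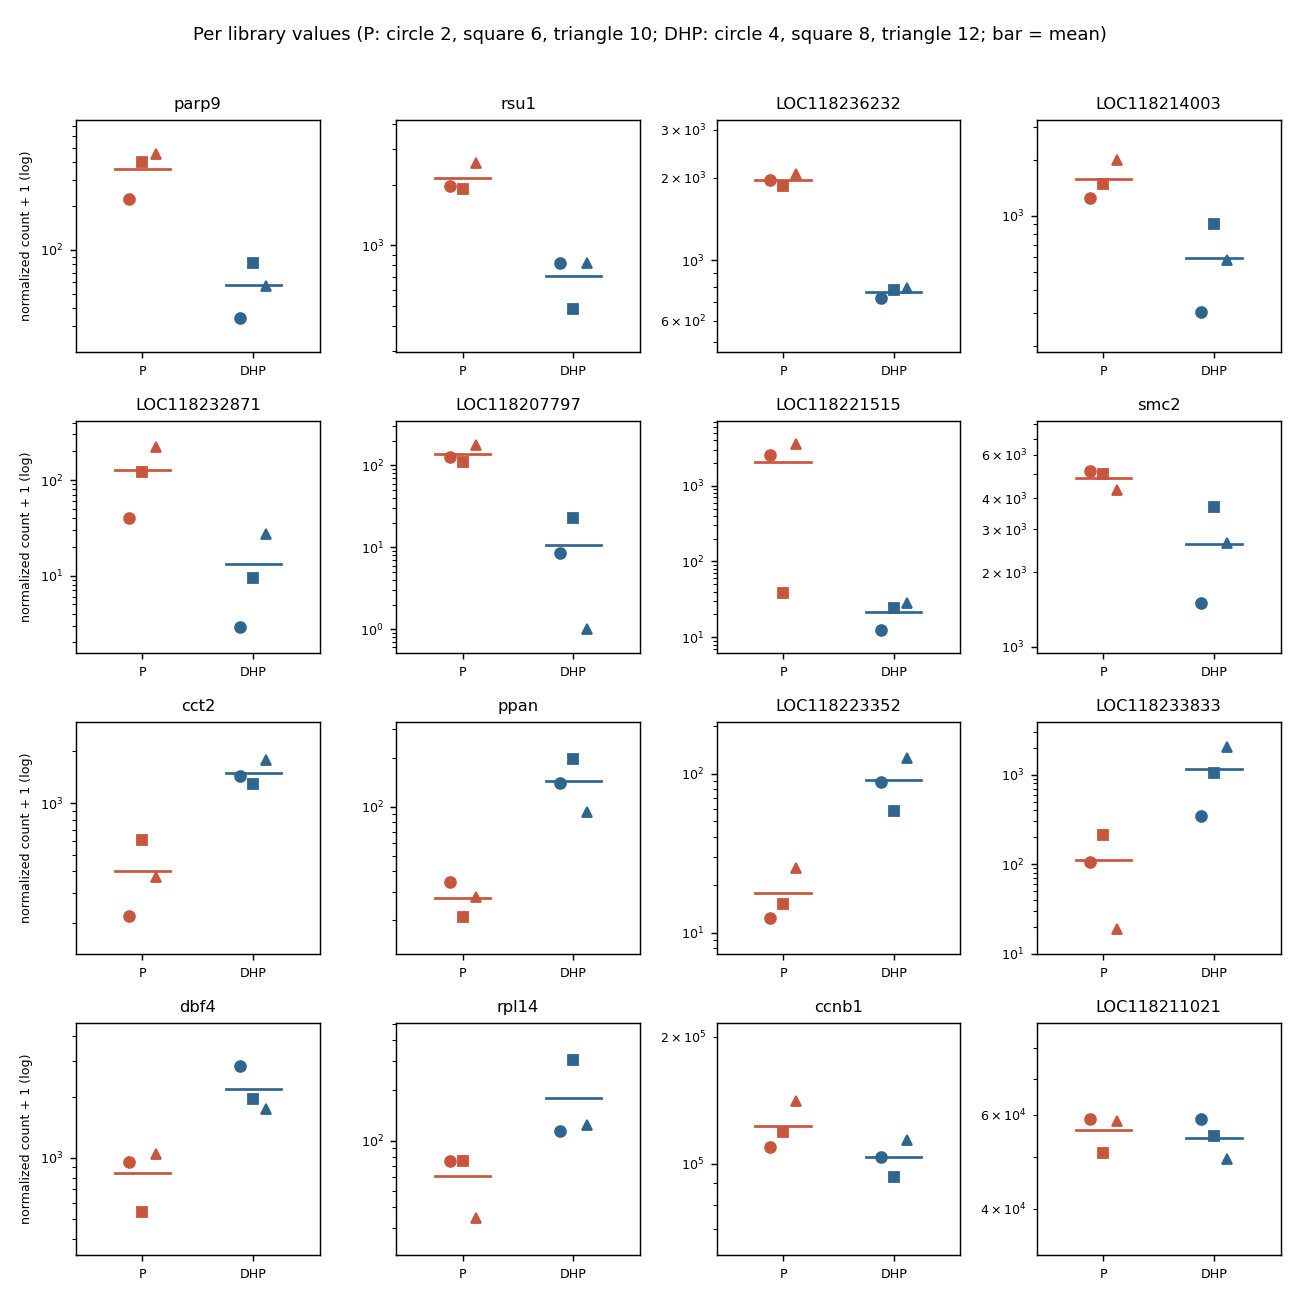
Normalized counts plus 1 (log axes, a scale of its own in each panel) of 16 genes in the egg libraries, P eggs on the left (libraries 2, 6 and 10) and DHP eggs on the right (4, 8 and 12), with bars at the means. The upper rows hold genes with higher values after P, the lower rows genes with lower values, and the last panels ccnb1 and protein B4 (LOC118211021), whose groups overlap.

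Differences between the eggs were set beside the oocytes taken before the injections. Between oocytes before P and oocytes before DHP, edgeR gave 0 calls among 16153 genes (0%), with 494 below an unadjusted p of 0.05, voom gave 0 and DESeq2 10. Among these DESeq2 calls were LOC118207797 (adjusted p 0.0019), LOC118221515 (0.0077), LOC118221516 (0.0024) and LOC118233833 (3.7e-05). DESeq2 had called each of these between the eggs as well, in the same direction. Of the 580 genes in which all P eggs lay above all DHP eggs, 560 were tested in the oocytes and 386 of them (68.9%) had higher values before P, against 47.7% of all genes. Of the 672 genes in which all P eggs lay below, 664 were tested in the oocytes and 408 of them (61.4%) had lower values before P, against 52.3% of all genes. Over the 12875 genes tested in both, the log2 fold changes in eggs and in oocytes correlated at r = 0.28, which is across genes and a description only. Since each treatment was given to other females, differences between the females and differences between the steroids cannot be told apart in the eggs alone.

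The change from oocyte to egg was then compared between the treatments in all 12 libraries, without pairing, since the columns tie no egg library to an oocyte library. edgeR gave 0 calls among 16891 genes (0%), with 700 below an unadjusted p of 0.05, and DESeq2 gave 3, which were LOC118208510, LOC118231945 and ppan, named because of this call. The first and the second of these had egg counts in library 8 only. For ppan the change differed by -3.3 ± 0.50 on the log2 scale (edgeR adjusted p = 0.173). For cct2 it differed by -1.41 ± 0.52, which neither edgeR nor DESeq2 called. The differences in change of LOC118207797, -0.42 ± 1.34, of LOC118236232, 0.44 ± 0.42, and of LOC118221516, -0.26 ± 2.1, were each within about 1 SE of 0. With SE of 1.34 and 2.1, a difference of several fold would not be detected for LOC118207797 and LOC118221516. Their equal change is thus not shown, and the other genes that DESeq2 called between the eggs are not set out here.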

How the data were processed

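RNA of eggs and ovarian oocytes was sequenced from stranded poly(A) libraries. The deposited counts are whole fragments assigned to each gene by the authors, with TopHat2 2.0.13 against fAngAng1.pri, SAMtools 1.2 to drop secondary alignments and HTSeq 0.6.1p1. Sources used here do not give how HTSeq treated strand, so reads of genes overlapping on opposite strands may not be told apart, and reads shared by near-identical copies are uncertain. The scaled means, fold changes and p-values that the authors made with DESeq were not used. Of the per-sample columns, 0 were left unused. Of the 31061 genes listed, 29999 carried a gene ID, and all of these IDs matched the RefSeq table of fAngAng1.pri, from which positions were taken.

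Egg libraries were grouped by their column headings. edgeR 4.0.16 in R 4.3.3 compared the 6 egg libraries (3 per group, 7627353 to 9554822 counts each) after filterByExpr (minimum count 10, minimum total 15) and TMM scaling, without a block, and adjusted p under 0.01 by Benjamini-Hochberg was a call. Oocytes were scaled and fitted on their own, and all 12 libraries in 1 further fit. Normalized counts are scaled to the mean effective library size of the egg, or of the oocyte, libraries. Errors of fold changes are approximate SE, taken as the absolute log2 fold change divided by the square root of edgeR's F statistic. The 95% intervals and the bounds on equality come from limma 3.58.1 (voom) with moderated variances. Both come from different fits, so an interval can be far wider than its error implies, above all where libraries of a group differ strongly. These intervals rest on the spread between only 3 females per group. Shares of counts were compared by exact two-sided permutation. Tables were handled with Python 3.11.15 and pandas 2.3.3, and the fits were tested on simulated data.

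Named genes were the 15 of smallest p per direction, the 10 of largest fold change without overlap per direction, the 10 most abundant, the 10 of narrowest interval, up to 3 per class by p and 2 by mean count, those called by any tool, those the study measured by other means, and neighbours of the same product name. The text uses those that the account needs. The classes were set by symbol and product name. Members, lists and tests were chosen with earlier results of these data known. Alternatives were DESeq2 1.42.0, limma-voom, other scalings and filters, and each library left out.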

Additional observations from a re-analysis of the deposited data

How the results depend on the processing

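Between P eggs and DHP eggs the count of calls was 0 with edgeR under TMM, relative log expression scaling, total counts and a mean of 50 counts, and with limma-voom. It was 9 with DESeq2, 63 without a filter on low counts, and 0 to 2 with a library left out, the 2 being LOC118221515 and LOC118221516 without library 6. Of those 63 genes, 21 were higher and 42 lower after P, and 34 had over 90% of their egg counts in 1 library. Between oocytes the count was 10 with DESeq2 and 0 to 2 with a library left out. The 2 were again LOC118221515 and LOC118221516, without library 5. For the difference of the changes the count was 3 with DESeq2. Genes bounded within 2-fold were 1 without the filter, protein B4 (LOC118211021), 6712 with a bound of 4-fold, and 2685 by the unadjusted interval. With a library left out, the interval count ran from 1460 to 2631 and the 4-fold count from 4304 to 6322, both as alternatives chosen after seeing the data. The median SD within P eggs was 0.353 for genes with a mean of at least 50 counts and 0.333 to 0.444 with a library left out, and within DHP eggs 0.502, and 0.403 to 0.60. No paired analysis was possible because P and DHP eggs came from different females and the count columns carry no replicate number.

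Of 1116 values of the 93 genes under other settings, 24 became calls. Another 1088 stayed uncalled and either kept their sign or changed it by a shift within the SE. The other 4 changed sign by a shift larger than the SE, and none of them was a call. With a library left out, LOC118206349 ran from -0.35 to 0.70, nlrc5 from -3.88 to 1.72, nr3c1 from -0.68 to 0.30 and hsd17b12a from -0.30 to 0.26. Of 414 class medians, 358 moved by less than the SD between libraries and 56 by more, and with total counts only the median of all genes tested was -0.13 in place of -0.03. The cause was not tested. Genes over 2-fold numbered 339 higher and 1493 lower with total counts only, and 2734 and 4753 without the filter. With 3 libraries per group, depth and spread left differences in rare genes undetectable: the median gene under 50 counts could differ by up to 5.13-fold.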

Other observations

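Some transcripts were seen in only one egg type, always at few counts. In 52 genes every P egg library had a count and all DHP egg libraries had 0, with at most 34 counts over the P eggs and 10 or more in 19 genes. In 67 genes every DHP egg library had a count and all P egg libraries had 0, with at most 96 counts over the DHP eggs and 10 or more in 34. Such genes are below the level at which these libraries bound a difference.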
